A study of Mus musculus with 36 samples.

Results

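Plasma of 9 NeuT- female mice, all placed in batch 2 by the labels, was compared by its haemolysis label: 4 mice were labelled haemolysed (y) and 5 were labelled not haemolysed (no) and are called clear here. These 9 mice were picked out by genotype, batch and haemolysis label from 36 mice in the whole series, with earlier results of these data known. NeuT- mice are non-transgenic BALB/c siblings of MMTV-NeuT females, in which the mouse mammary tumour virus promoter drives the activated rat Neu oncogene in mammary epithelium. No NeuT- mouse carries the transgene, and the labels name no treatment. The haemolysed group held 1 mouse of 6 weeks and 3 of 24 weeks, and the clear group held 4 of 6 weeks and 1 of 24 weeks, so age and the haemolysis label were nearly aligned. In the haemolysed group, mouse 2 was the mouse of 6 weeks. In the clear group, mouse 5 was the mouse of 24 weeks. Mouse numbers within a group are names only and pair no mice. The titles of clear mice 1, 2 and 4 hold the letters CI, which are not explained, and the tumour grade given for the 9 mice is normal, no or NA. Each mouse gave 1 plasma RNA sample on 1 single-colour Agilent miRNA array, labelled with Cy3, that carries probes for 1247 mouse miRNAs.

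Haemolysis is the rupture of red cells, which releases haemoglobin and red-cell RNA into plasma. Haemoglobin absorbs strongly near 414 nm, the wavelength at which each plasma was read. Mature red cells carry little messenger RNA but large amounts of a few miRNAs, above all miR-451a and miR-144-3p, which are made from neighbouring hairpins that GATA-1 switches on during erythropoiesis, and the miR-15/16 family and miR-486. For this reason miR-451a and miR-16-5p are widely used as markers of haemolysis in plasma, often set against miR-23a-3p, which depends little on red-cell lysis.

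The mature sequences of the red-cell miRNAs on which the comparison turns are shown 5′ to 3′, with the seed (bases 2 to 8, which pair with target mRNAs) in capitals. They were taken from RefSeq on GRCm38.p6, in which 1017 of the 1247 miRNAs on the array were matched by name. The first pair are products of neighbouring hairpins, with 119 bases between the mature sequences on the plus strand of chromosome 11.
miR-451a: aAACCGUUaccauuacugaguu
miR-144-3p: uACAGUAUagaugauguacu
miR-451a lies at chr11:78073186-78073207 and miR-144-3p at chr11:78073047-78073066. The next 3 share the seed AGCAGCA and differ in the bases after it.
miR-16-5p: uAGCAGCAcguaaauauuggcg
miR-15a-5p: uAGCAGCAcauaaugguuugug
miR-15b-5p: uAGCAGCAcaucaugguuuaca
miR-16-5p is encoded at chr14:61631936-61631957 on the minus strand, 117 bases from miR-15a-5p, and again at chr3:69009918-69009939 on the plus strand, 121 bases from miR-15b-5p. The reference miRNA used in haemolysis ratios, encoded at chr8:84208563-84208583 on the plus strand, has an unrelated seed.
miR-23a-3p: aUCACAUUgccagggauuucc

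The 9 arrays held little miRNA signal. The scanner software calls a miRNA detected when its total gene signal, the summed brightness of its detected probes after background subtraction, exceeds 3 times its error, and otherwise sets the signal to 0.1. Of 1247 miRNAs, 1148 were detected on none of the 9 arrays, 99 on at least 1, 45 on at least 4, 15 on at least 7, and 1 on all 9. The 10 batch 1 arrays that lay on the same slides as these arrays detected 143 to 522 miRNAs each. Added control RNAs for the hybridization step, named dmr_3 and dmr_6 in the files, were detected on all 9 arrays at 5510 to 10397, while the labelling controls dmr_285 and dmr_31a were detected on 0 of 9. No 2 of the 9 arrays held identical values, and correlations between pairs ran from 0.232 to 0.839. The labels give each array its own mouse, and nothing in them says whether the mice of a group shared a litter or were bled together.

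Haemolysed plasma did not yield more detected miRNAs than clear plasma beyond the spread between mice. In the clear group, 16, 24, 85, 59 and 4 miRNAs were detected in mice 1 to 5. In the haemolysed group, 36, 2, 54 and 80 were detected in mice 1 to 4. The groups overlapped over almost their whole range, and each held 1 mouse with under 10 detected miRNAs: haemolysed mouse 2 and clear mouse 5. The haemolysed mean was 43 ± 32.8 (SD, n = 4) and the clear mean 37.6 ± 33.5 (SD, n = 5), a difference of 5.4 miRNAs (exact permutation test, two-sided p = 0.825, adjusted p = 0.887 over 9 single-value tests). The smallest p that 4 against 5 mice allow is 0.0159.

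The summed signal of the detected miRNAs did not separate the groups either. It was 1757, 2700, 10362, 4456 and 108 in clear mice 1 to 5. It was 2812, 130, 9159 and 9960 in haemolysed mice 1 to 4. The highest and the lowest sum were both in clear mice. On the log2 scale the haemolysed mean was 0.35 above the clear mean, with SDs of 2.92 (n = 4) and 2.49 (n = 5) (exact permutation test, two-sided p = 0.746, adjusted p = 0.887).

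Detection was not ordered by the measured absorbance. Absorbance at 414 nm was 0.059, 0.051, 0.2, 0.06 and 0.2 in clear mice 1 to 5 and 0.331, 0.837, 0.282 and 0.286 in haemolysed mice 1 to 4, so the labels separated the plasmas by absorbance without overlap. Clear mice 3 and 5 had the same absorbance of 0.2, and 85 miRNAs were detected in one and 4 in the other. The most haemolysed plasma, at 0.837, gave the fewest detected miRNAs, 2. Over the 9 mice, Pearson's r of absorbance and detected miRNAs was -0.28 (exact permutation p = 0.519, adjusted p = 0.887) and Spearman's rho was -0.06 (exact permutation p = 0.887, adjusted p = 0.887). Without the 2 mice farthest from the median absorbance, r was 0.23 (exact permutation p = 0.585, n = 7), so its sign rested on those mice.

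**Figure D1:**
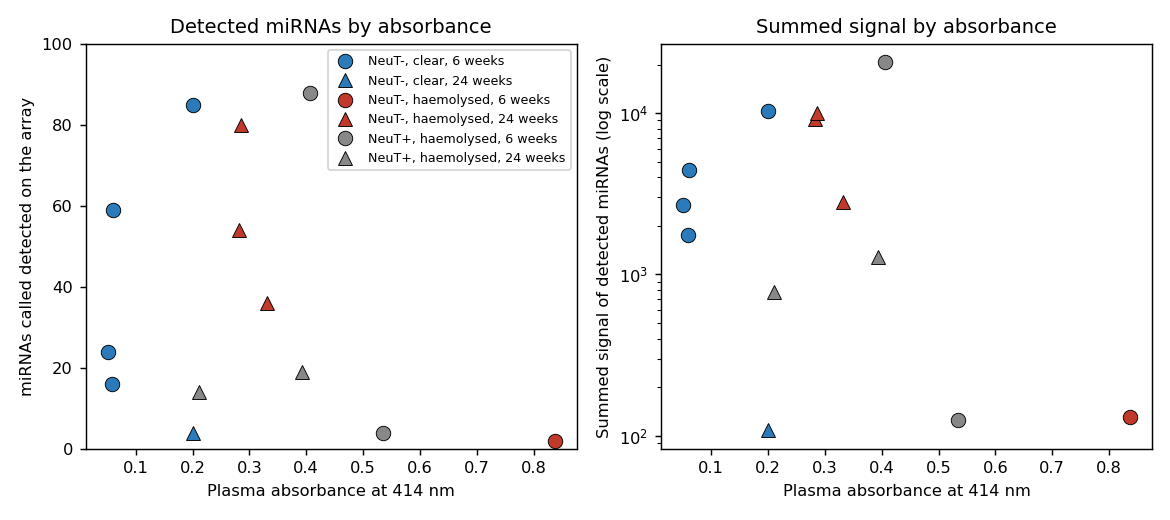
Detected miRNAs per array (left) and the summed signal of the detected miRNAs on a log scale (right) against plasma absorbance at 414 nm, 1 point per mouse, for clear NeuT- (blue), haemolysed NeuT- (red) and haemolysed NeuT+ mice of batch 2 (grey), with circles for 6 weeks and triangles for 24 weeks. Clear and haemolysed mice span the same heights, from 4 to 85 and from 2 to 80 detected miRNAs.

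miR-451a, the most abundant miRNA of red cells and a regulator of erythroid maturation, was detected in 4 of 5 clear and 3 of 4 haemolysed mice. Its signal was 389, 303, 2551 and 795 in clear mice 1 to 4 and not detected in clear mouse 5. It was 432 in haemolysed mouse 1, not detected in mouse 2, 1425 in mouse 3 and 3189 in mouse 4. The mouse with the highest absorbance of all therefore had no detected miR-451a, and clear mouse 3 exceeded 3 of the 4 haemolysed mice. With values under 12.6, the median of the arrays' lowest detected signals, raised to that floor, the haemolysed mean was 0.34 higher on the log2 scale, with SDs of 3.52 (n = 4) and 2.85 (n = 5) (exact permutation test, two-sided p = 0.810, adjusted p = 0.887). The 95% interval of that difference in limma ran from -4.16 to 4.84, so a change of 4 log2 units in either direction lay inside it.

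miR-144-3p, the neighbour of miR-451a on chromosome 11, was detected in 2 of 5 clear and 3 of 4 haemolysed mice. Its signal was 303 in clear mouse 3 and 73.3 in clear mouse 4, and it was not detected in clear mice 1, 2 and 5. In haemolysed mice 1, 3 and 4 it was 63.9, 272 and 425, and it was not detected in mouse 2. The 5 mice in which both miRNAs were detected stood in the same order for miR-144-3p as for miR-451a, a description over 5 arrays. The haemolysed mean was 1.54 higher on the log2 scale, with SDs of 2.29 (n = 4) and 2.08 (n = 5) (exact permutation test, two-sided p = 0.397, adjusted p = 0.887). The passenger strand of the same hairpin, miR-144-5p, was detected in haemolysed mouse 4 alone, at 12.1.

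miR-16-5p, the other common haemolysis marker and a repressor of cell-cycle genes, was found in the same 5 mice. Its signal was 154 and 65.5 in clear mice 3 and 4 and 59.4, 130 and 141 in haemolysed mice 1, 3 and 4. The highest value belonged to a clear mouse. The haemolysed mean was 1.08 higher on the log2 scale, with SDs of 1.62 (n = 4) and 1.70 (n = 5) (exact permutation test, two-sided p = 0.524, adjusted p = 0.887).

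miR-15a-5p, which shares its seed with miR-16-5p and has the same targets in large part, was the 1 miRNA detected on all 9 arrays. Its signal was 57.1, 54.7, 104, 49.96 and 47.2 in clear mice 1 to 5 and 77.8, 48.8, 106 and 107 in haemolysed mice 1 to 4. These values spanned 2.26-fold, against 10.5-fold among the 7 mice with detected miR-451a. Clear mouse 3 lay above the other 4 clear mice and close to haemolysed mice 3 and 4. The difference between the groups was 0.44 ± 1.17 on the log2 scale (SE, limma, adjusted p = 0.920). This SE draws on the other miRNAs in the fit, many with values at the floor. It is wider than the spread of these 9 values alone would give. In haemolysed mouse 2 and clear mouse 5, miR-15a-5p was detected while miR-16-5p and miR-15b-5p, with the same seed, were not. The probes for miR-15a-5p pair with its bases 1 to 22 and 2 to 22, seed included. Those for miR-16-5p pair with its bases 5 to 22 and 6 to 22. Those for miR-15b-5p pair with its bases 3 to 22 and 4 to 22. Whether this pairing bears on detection was not tested.

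The remaining red-cell miRNAs were each detected on 4 arrays or fewer. miR-15b-5p was detected in 2 mice of each group, at 83.7 and 33.2 in clear mice 3 and 4 and at 59.7 and 93.3 in haemolysed mice 3 and 4. miR-25-3p, of the miR-106b cluster, was detected in clear mouse 3 at 47.1 and haemolysed mouse 4 at 43.8. miR-3107-5p, whose hairpin overlaps that of miR-486, was detected in the same mice, at 22.7 and 10.8. miR-92a-3p was detected in none of the 9. Of the 9 red-cell miRNAs on the array, 8 were detected somewhere: 2, 2, 7, 5 and 1 in clear mice 1 to 5, and 4, 1, 5 and 8 in haemolysed mice 1 to 4. All 5 red-cell miRNAs that entered the test across miRNAs had a positive difference, with a median of 0.46 on the log2 scale, beside 0.47 over all 45 miRNAs tested, of which 35 were positive. None of the 5 passed the test.

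**Figure D2:**
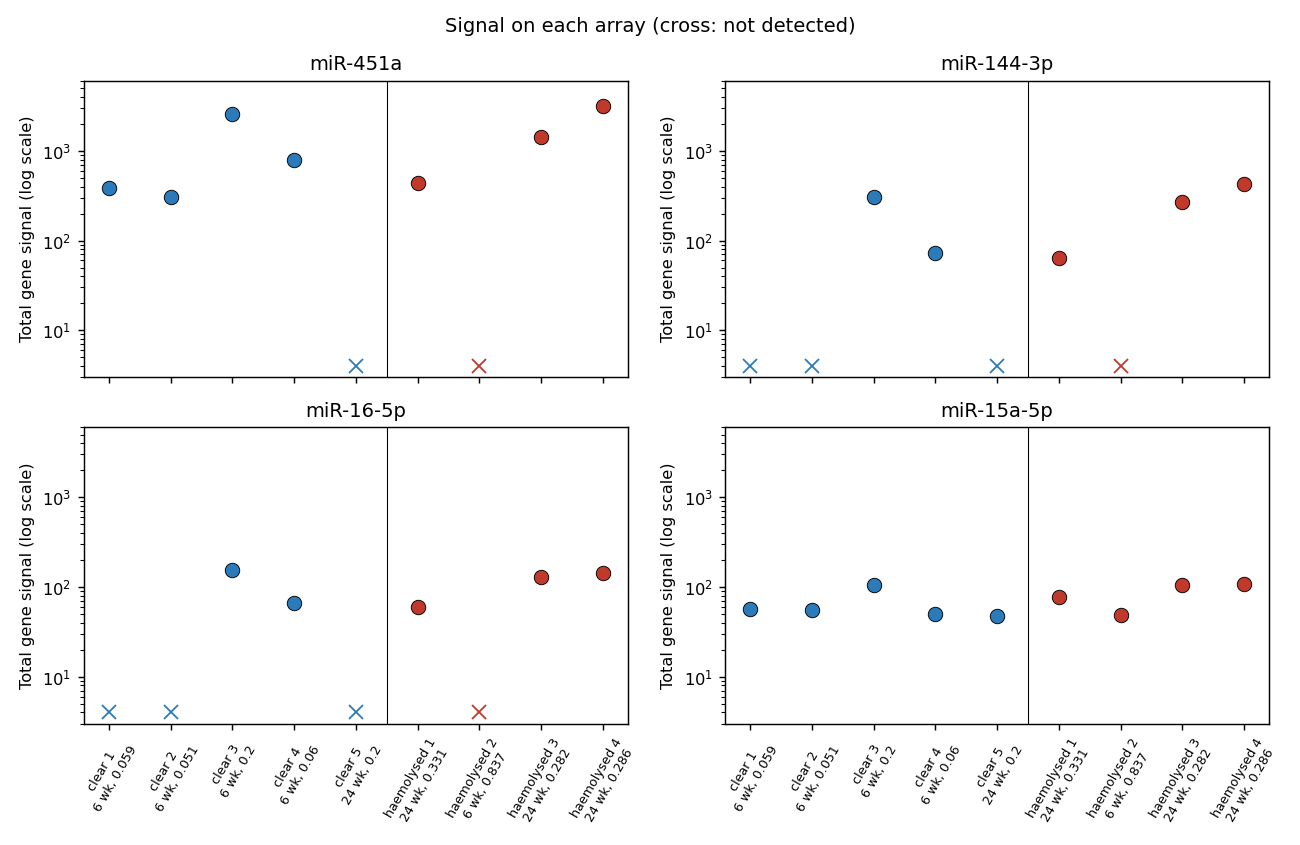
Total gene signal on a log scale of miR-451a, miR-144-3p, miR-16-5p and miR-15a-5p in each of 5 clear (blue) and 4 haemolysed mice (red), with age and absorbance under each array and crosses at the foot where the miRNA was not detected. The first 3 are missing in clear mouse 5 and haemolysed mouse 2, while miR-15a-5p lies between 47.2 and 107 in all 9.

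miR-23a-3p, the reference of the haemolysis ratio, was detected at 46.5 and 46.1 in clear mice 3 and 4 and at 24.3, 27.8 and 43.4 in haemolysed mice 1, 3 and 4. The log2 ratio of miR-451a to miR-23a-3p could be formed on these 5 arrays. It was 5.78 and 4.11 in clear mice 3 and 4, whose absorbances were 0.2 and 0.06. It was 4.15, 5.68 and 6.20 in haemolysed mice 1, 3 and 4. The ratios overlapped between the groups, and the most absorbing of these 5 plasmas, haemolysed mouse 1 at 0.331, had the next to lowest ratio. This ratio was formed after the values were seen, compares arrays and not the levels of the miRNAs, and was not tested.

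Markers of other sources of plasma RNA were rare. miR-126-3p, of platelets and endothelium, was detected in haemolysed mouse 4 alone, at 10.3, and the other 6 miRNAs of that list in none of the 9. The 3 myeloid miRNAs were all detected in clear mouse 3 and haemolysed mouse 4, and miR-223-3p, the granulocyte miRNA, was at 41.7, 38.6 and 42.8 in clear mice 3 and 4 and haemolysed mouse 4. None of the 4 lymphoid miRNAs, miR-150-5p included, none of the 4 liver miRNAs, miR-122-5p included, and none of the 7 epithelial miRNAs was detected on any of the 9 arrays. Of the muscle list, 1 of 3 was detected, miR-1a-3p in clear mouse 4 at 41.9. In the let-7 family, let-7b-5p was detected on none of the 9 arrays, and 4 of 11 members were found in any. miR-21a-5p, expressed in most cell types, was at 53.3, 95.6 and 76.2 in clear mice 2, 3 and 4 and at 84.7 and 87.9 in haemolysed mice 3 and 4. In these bulk samples a change in the share of plasma RNA from a cell type and a change in RNA released per cell cannot be told apart.

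Across miRNAs, no signal passed the test between haemolysed and clear plasma. The 45 miRNAs detected on at least 4 of the 9 arrays were fitted in limma on unscaled log2 signals, and 0 passed an adjusted p of 0.05 (0% of those tested), while 0 had an unadjusted p under 0.05. The smallest adjusted p in limma was 0.910. With array weights, 12 were called, all higher (26.7% of those tested). A weight falls as an array departs from its own group in these same data. The weights were lowest for haemolysed mouse 2 (0.296) and clear mouse 3 (0.330). These arrays had the fewest detected miRNAs of the haemolysed group (2) and the most of the clear group (85). The weighted calls are thus not separate support for a difference. miR-144-3p (3.20, limma, adjusted p = 0.00714) and miR-16-5p (2.29, limma, adjusted p = 0.0253) were among them. In the unweighted fit, differences ran from -1.50 to 1.72. The increases with the smallest p in that fit, none of which passed, belonged to miR-3081-5p (1.72 ± 0.99, SE), miR-144-3p (1.54 ± 1.11), miR-483-5p (1.12 ± 0.86), which lies in an intron of Igf2, miR-1897-5p (1.36 ± 1.05) and miR-3098-5p (1.26 ± 0.99). All 5 of these were among the 12 called with array weights, miR-3081-5p at 2.56 (limma, adjusted p = 0.00714). The sizes depended on where the floor was put. Unweighted, miR-3081-5p differed by 2.50 with the floor at the lowest of the arrays' lowest detected signals (4.75). It differed by 0.65 with the floor at the highest of them (48.8), and by -0.012 in the table of log2 values deposited by the authors. miR-3081-5p was at 93.1, 160 and 69.4 in haemolysed mice 1, 3 and 4, at 79.4 in clear mouse 3 and not detected in the other 5 mice. Where detected, its levels overlapped between the groups. It was found in 3 haemolysed mice and 1 clear mouse, which Fisher's exact test did not call. miR-3098-5p was instead detected in 2 mice of each group, at 211 and 187 in haemolysed mice 3 and 4 and at 159 and 10.2 in clear mice 3 and 4.

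The decreases that did not pass, ranked by p, belonged to miR-3472 (-1.50 ± 1.14, SE), miR-3474 (-0.69 ± 0.65), miR-874-3p (-0.78 ± 1.10), miR-5100 (-0.79 ± 1.22) and miR-6243 (-0.69 ± 1.77). miR-6243 was detected on 8 arrays, at 178, 407, 590, 659 and 24.3 in clear mice 1 to 5 and at 81.7, 447 and 937 in haemolysed mice 2, 3 and 4. It was not detected in haemolysed mouse 1, in which 36 other miRNAs were. miR-21a-5p differed by -0.13 ± 1.04 and miR-23a-3p by 0.22 ± 0.76 on the log2 scale, with SEs from limma.

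**Figure D3:**
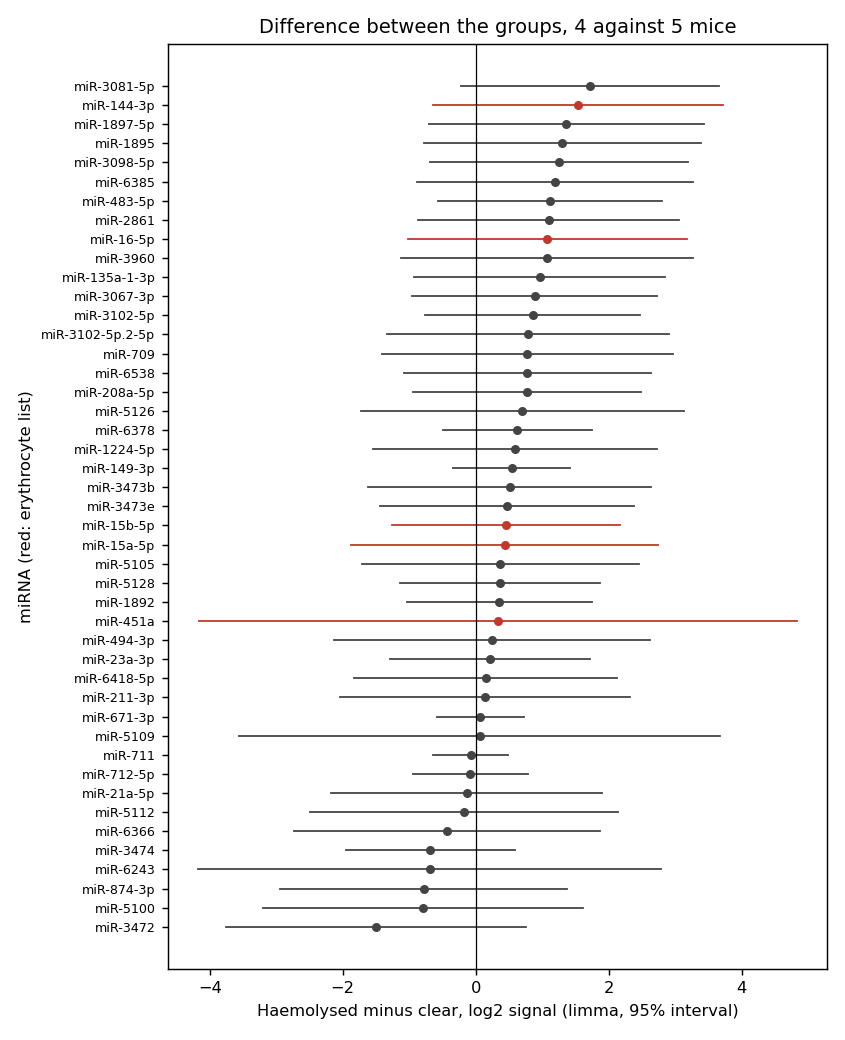
Difference in log2 signal, haemolysed minus clear, for the 45 miRNAs tested, with 95% intervals from limma (4 against 5 mice), red for the red-cell list. All intervals include 0, and 35 of the 45 points lie to the right of it.

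No miRNA was called by its presence on the array either. Fisher's exact test over the 99 miRNAs detected on at least 1 array called 0 (0% of those tested), and 0 had an unadjusted p under 0.05. The smallest unadjusted p was 0.167, for miR-686, detected in 3 of 5 clear and 0 of 4 haemolysed mice. A miRNA present in all 4 haemolysed and no clear mice would have given 0.00794 before adjustment, and no miRNA had that pattern. After adjustment over the 99 miRNAs, 1 such miRNA alone would not have passed. The 0 calls therefore do not show that presence was alike in the groups. The next, at p = 0.206 by Fisher's exact test, were miR-3081-5p, miR-483-5p and miR-149-3p, each found in 3 of 4 haemolysed and 1 of 5 clear mice. After them in that direction came miR-690, miR-144-5p, miR-20b-5p, miR-126-3p and miR-681, each in 1 haemolysed mouse. Toward clear plasma, miR-6243 was found in 5 clear and 3 haemolysed mice, miR-547-5p and miR-6238 in 2 clear mice and no haemolysed mouse, and miR-3474 in 3 clear mice and 1 haemolysed mouse.

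The 2 groups largely shared their miRNAs. Of 84 miRNAs detected in any haemolysed mouse, 79 (94.0%) were also detected in a clear mouse, and these were 84.0% of the 94 detected in any clear mouse. All 5 miRNAs found in haemolysed plasma alone came from haemolysed mouse 4. Of the 15 found in clear plasma alone, 12 came from 1 array each. Arrays with few detected miRNAs mostly held a subset of those with many: all 54 of haemolysed mouse 3 were among the 85 of clear mouse 3, all 16 of clear mouse 1 were among the 59 of clear mouse 4, and both miRNAs of haemolysed mouse 2, miR-15a-5p and miR-6243, were also detected in clear mouse 5.

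**Figure D4:**
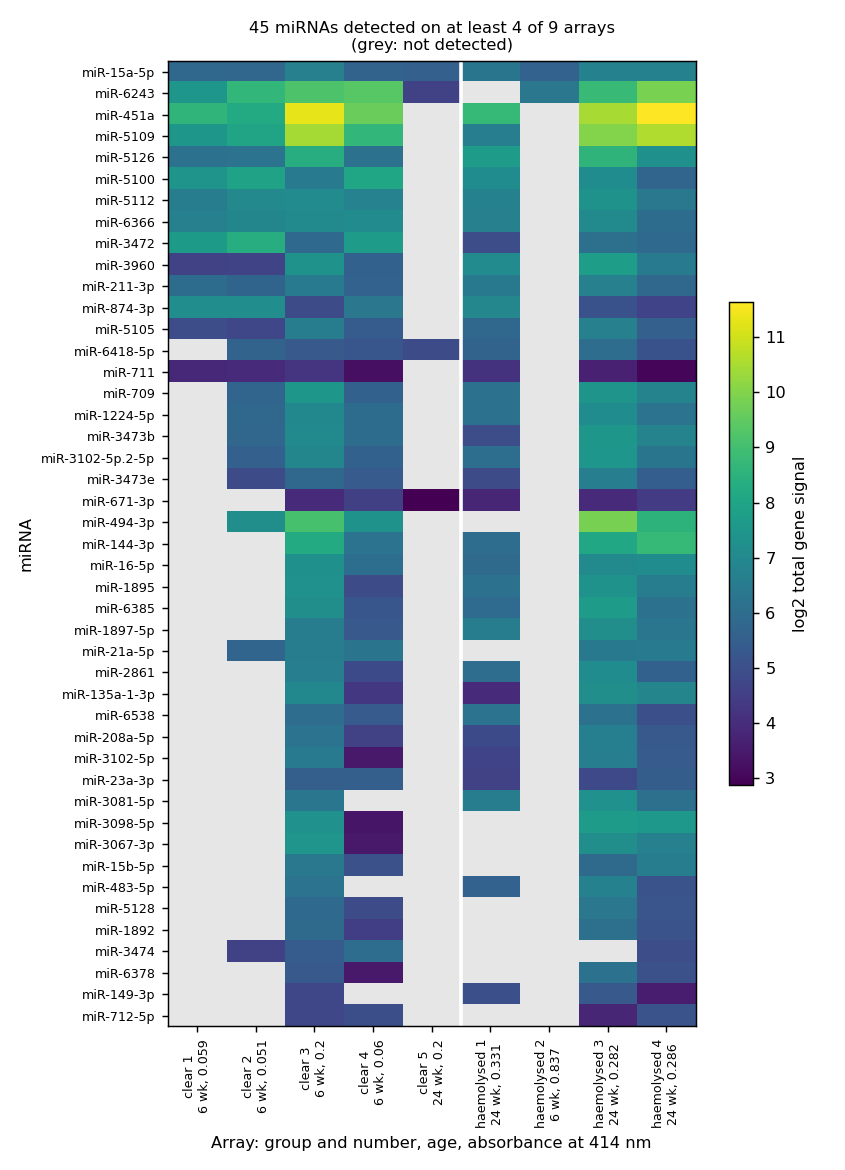
log2 total gene signal of the 45 miRNAs detected on at least 4 of 9 arrays, in rows ordered by the number of arrays, for 5 clear (left of the white line) and 4 haemolysed mice (right), grey where not detected. Clear mouse 5 and haemolysed mouse 2 are almost empty, and clear mouse 3 and haemolysed mice 3 and 4 are filled in most rows.

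The scan day moved with detection. The files place the 9 arrays on 6 slides and 3 scan days. On day 1 (clear mice 1 and 2, haemolysed mice 1 to 3) the median of the negative control spots was 731 to 785. The lowest detected signal on a day 1 array was 12.6 to 15.1, apart from 48.8 in haemolysed mouse 2, which had 2 detected miRNAs. On day 2 (clear mice 3 and 4, haemolysed mouse 4) the control median was 281 to 310 and the lowest detected signal 4.75 to 6.58. On day 3 (clear mouse 5) they were 306 and 7.29. All 17 miRNAs detected on a single array were on a day 2 array. With a common signal threshold of 48.8, which was added after seeing the data, clear mice 1 to 5 had 11, 17, 38, 17 and 0 detected miRNAs and haemolysed mice 1 to 4 had 25, 2, 42 and 31. As this threshold is the lowest detected signal of haemolysed mouse 2, that mouse kept its 2 miRNAs by construction. Within day 1 the haemolysed mean of detected miRNAs was 10.67 above the clear mean, within day 2 it was 8 above, and day 3 held 1 clear mouse alone. On the 2 slides with a mouse of each group, haemolysed plasma gave 20 more detected miRNAs (36 against 16) and 21 more (80 against 59). In both slides the mouse labelled haemolysed was of 24 weeks, and the clear mouse was of 6 weeks with CI in its title. On them age, the CI mark and haemolysis cannot be told apart.

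The contrast took opposite directions at the 2 ages. At 6 weeks, the 1 haemolysed mouse had 2 detected miRNAs, below the 16 to 85 of the 4 clear mice, a difference in means of -44. At 24 weeks, the 3 haemolysed mice had 36, 54 and 80, above the 4 of the 1 clear mouse, a difference of 52.7. Each direction rests on 1 nearly empty array. The difference between the contrasts was 96.7 miRNAs, and the exact permutation test within age gave p = 0.1, the smallest that its 20 arrangements allow (adjusted p = 0.887).

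In limma, fits within 1 age set a lone mouse against 4 at 6 weeks and against 3 at 24 weeks. The lone mice, haemolysed mouse 2 and clear mouse 5, stood at the floor for nearly all 45 miRNAs, which sets the sign and size of the differences. miR-451a, for example, was not detected in either, and its log2 difference was -5.79 at 6 weeks and 6.64 at 24 weeks against the floor. The 4 calls at 6 weeks, all lower (8.89% of those tested), the 13 at 24 weeks, all higher (28.9%), and the 8 for the difference between the ages, all positive (17.8%), were therefore fixed by these 2 arrays and are not read as tests of haemolysis or age. The hybridization controls on the 2 arrays were at 6121 to 7519, inside the range of the other 7 arrays (5510 to 10397). The amount of RNA labelled per array was not stated in the labels, and its part in these differences was not tested.

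Without the 2 nearly empty arrays, an alternative added after seeing the data, the remaining haemolysed mice were all of 24 weeks and the remaining clear mice all of 6 weeks, so age and haemolysis cannot be told apart. In that limma fit 0 of 45 miRNAs were called. The smallest adjusted p was 0.510, and 2 miRNAs had an unadjusted p under 0.05.

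Among the 9 mice, a few miRNAs were highest in the plasma of lowest absorbance. The 3 clear mice with CI in the title had absorbances of 0.051 to 0.06, against 0.2 or more in the other 6. miR-3472 was at 199, 323 and 210 in these mice (clear 1, 2 and 4), at 58.1 in clear mouse 3, at 30.5, 68.1 and 58.6 in haemolysed mice 1, 3 and 4, and not detected in the other two. The CI mice did not overlap with the other 6. In a limma fit on log2 absorbance, miR-3472 fell by 1.08 ± 0.38 per doubling (SE, unadjusted p = 0.00539, adjusted p = 0.243), which did not pass. That fit held the nearly empty arrays at the floor, among them haemolysed mouse 2 at the highest absorbance, 0.837. The slope rests in part on them and was not fitted without them. Its p-value also pools the spread of the other miRNAs as if they varied independently, though many rose and fell together by array.

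miR-5100 had the same order, at 168, 243 and 260 in the CI mice and at 53.2 to 139 in the 4 other mice in which it was detected. Its slope was -0.85 ± 0.38 per doubling of absorbance (SE, limma, unadjusted p = 0.0256, adjusted p = 0.576). Again the nearly empty arrays stood at the floor and the p-value pooled the spread of other miRNAs. miR-686 was detected in the CI mice alone among the 9, at 14.6, 16.8 and 5.55. In the NeuT+ mice of batch 2, all labelled haemolysed, miR-686 was detected in 3 of 4 and miR-5100 reached 763. miR-3472 was detected in 1 of these 4, at 448, above all 3 CI mice. Both the 763 and the 448 came from NeuT+ mouse 3, which had the most detected miRNAs (88) and the highest summed signal (20614) of batch 2. In NeuT+ mice 1 and 2, miR-5100 was at 168 and 229. Among haemolysed plasmas of batch 2, a high level of miR-3472 was thus measured on that bright array alone, while levels of miR-5100 as in the CI mice were measured on others too. miR-874-3p was at 142, 143 and 81.4 in the CI mice and overlapped with haemolysed mouse 1 at 120. These miRNAs were singled out after their values were seen. The 3 mice are also all of 6 weeks. The sequences of the first pair, in RefSeq at chrX:145039390-145039414 and chr11:60728698-60728718, both on the plus strand, are shown because they alone among the 45 tested had an unadjusted p under 0.05 with absorbance.
miR-3472: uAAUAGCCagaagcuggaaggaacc
miR-5100: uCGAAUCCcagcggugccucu

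**Figure D5:**
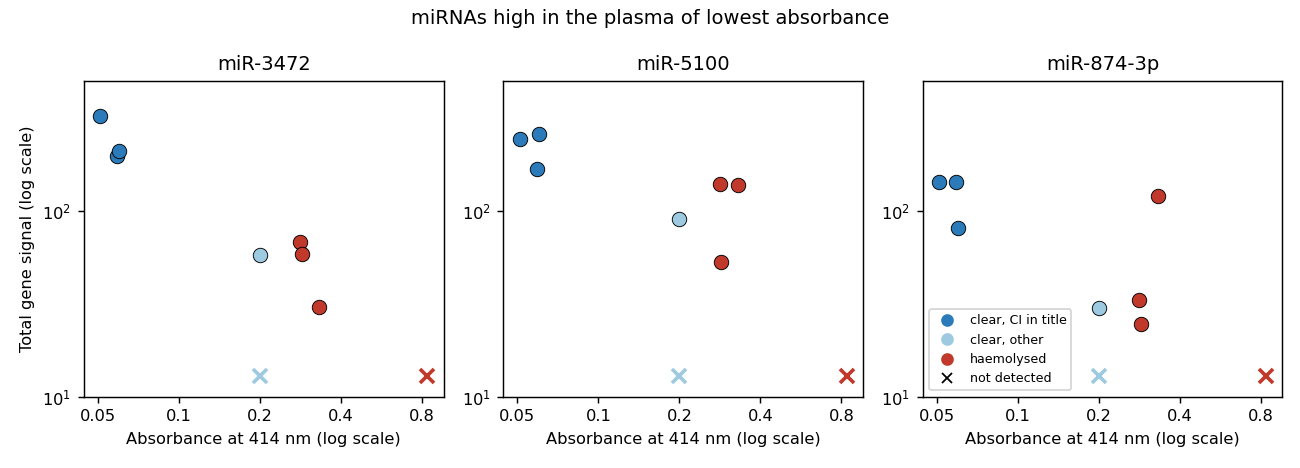
Total gene signal of miR-3472, miR-5100 and miR-874-3p against absorbance at 414 nm, both on log scales, for clear mice with CI in the title (dark blue), other clear mice (light blue) and haemolysed mice (red), with crosses at the foot where the miRNA was not detected. For miR-3472 the CI mice lie between 199 and 323 and the other detected values between 30.5 and 68.1.

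Haemolysed NeuT- mice were also set beside the 4 NeuT+ mice of batch 2, which carry the transgene, were of 6 weeks (2 mice) and 24 weeks (2 mice) and were all labelled haemolysed, with absorbances of 0.211 to 0.535. Detected miRNAs numbered 14, 19, 88 and 4 in the NeuT+ mice. The haemolysed NeuT- mean of 43 ± 32.8 (SD, n = 4) was 11.8 above the NeuT+ mean of 31.3 ± 38.3 (SD, n = 4) (exact permutation test, two-sided p = 0.686, adjusted p = 0.887). miR-451a was at 64.4, 163 and 1165 in NeuT+ mice 1 to 3 and not detected in mouse 4, and miR-15a-5p was again detected in all 4, at 43.6 to 157. Haemolysed plasma of either genotype thus ranged from under 10 to 80 or more detected miRNAs.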

How the data were processed

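Spot intensity values were background-subtracted and detrended within each array by Agilent Feature Extraction 10.7.3.1, per the file headers and the submitters' processing notes, with no scaling between arrays. The authors also deposited a table of log2 values, whose scaling and centring were not given in the sources used here. Medians of this table on the 9 arrays ran from 3.14 to 4.78, and it served as an alternative. Groups came from the labels, and the mice, miRNA lists and tests were chosen with earlier results of these data known. Signals were raised to a floor of 12.6, the median over the 9 arrays of the lowest detected signal, put on the log2 scale and left unscaled. Single values were compared by exact permutation (scipy 1.17.1) with Benjamini-Hochberg adjustment over 9 tests, and detection by Fisher's exact test per miRNA. Signals of the 45 miRNAs detected on at least 4 arrays were compared with limma 3.58.1 (R 4.3.3, trend and robust). The limma code was run on simulated miRNAs drawn independently, with shifts larger than any difference in the fit of the 9 arrays. That run checks the code and does not show how the fit performs on these arrays. miRNAs named were those detected on at least 8 arrays, a list of blood-cell and plasma markers, up to 5 per direction by limma p where none passed, and up to 10 per direction by Fisher p, with ties ordered by mean signal. Of the miRNAs of the Fisher rule, miR-144-3p, miR-16-5p, miR-451a and miR-5100 are given by their signals. The rule also took miR-5109, miR-494-3p and miR-5126 toward clear plasma, detected in 4, 3 and 4 clear and in 3, 2 and 3 haemolysed mice. No spots on the 9 arrays were saturated. The number of arrays limits the precision, and p-values measure the spread between these mice. In limma, SEs and p-values of a miRNA also draw on the spread of the other miRNAs fitted, as if these varied independently. Many miRNAs rose and fell together by array, so p-values from limma can be too small for the number of mice.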

Additional observations from a re-analysis of the deposited data

Results flagged for a closer look

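The contrast between haemolysed and clear plasma took opposite directions at the ages: the difference in detected miRNAs at 24 weeks exceeded that at 6 weeks by 96.7. This design could not pass the threshold, and each direction rests on 1 nearly empty array, haemolysed mouse 2 at 6 weeks and clear mouse 5 at 24 weeks.

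Single mice stood apart from the rest of their group by Dixon's test at the 95% level in 2 of 34 pairs of group and measure tested, where chance marks about 5%. Pairs in which all but 1 mouse stood at the floor were not tested. The absorbance of 0.837 in haemolysed mouse 2 lay above the other 3 haemolysed mice, and the log2 signal of miR-15a-5p in clear mouse 3 (6.70) above the other 4 clear mice.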

How the results depend on the processing

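Replicate numbers pair no mice here, but 2 slides held a mouse of each group. With slide as a block the differences were larger and positive: 20.5 detected miRNAs, 0.92 for the log2 summed signal, 1.08 for miR-451a, 1.67 for miR-16-5p and 2.44 for miR-144-3p, each with an exact permutation p = 0.5, the smallest that its 4 arrangements allow. On both slides the haemolysed mouse was the older and the clear mouse was a CI mouse. No alternative moved a single-value test past the threshold, but the sign was not stable. The difference in detected miRNAs (5.4) was -44 at 6 weeks only, -0.475 with the NeuT+ mice of batch 2 added, -1.5 without the CI mice and -0.866 per doubling of absorbance, and it ran from -6.93 to 19.1 with 1 mouse left out. The log2 summed signal (0.35) differed by -4.88 at 6 weeks only, -0.15 with scan day as a block, -0.11 with the NeuT+ mice added and -0.53 per doubling of absorbance, and from -0.68 to 1.75 with 1 mouse left out. miR-451a (0.34) differed by -5.79 at 6 weeks only, -0.10 with scan day as a block, -0.58 with the NeuT+ mice added and -0.60 per doubling of absorbance, and from -0.82 to 2.00 with 1 mouse left out. miR-16-5p (1.08) differed by -0.084 in the deposited table and -1.50 at 6 weeks only, and from 0.67 to 1.84 with 1 mouse left out. miR-144-3p (1.54) differed by 0.39 in the deposited table and -1.78 at 6 weeks only, and from 0.83 to 2.52 with 1 mouse left out. The difference from NeuT+ mice ran from -0.58 to 30.7 with 1 mouse left out, and r was 0.23 without the 2 farthest absorbances. The sign turned without haemolysed mouse 4 for detected miRNAs, the summed signal, miR-451a and the NeuT+ comparison, and without clear mouse 5 for the first 3 of these. It also turned without haemolysed mouse 3 for the summed signal and miR-451a. For these reversals the cause was not tested beyond the fewer mice that some settings hold.

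The count of 0 called by signal became 12 with array weights (26.7% of those tested, all higher, miR-144-3p and miR-16-5p among them). Those weights were set by each array's departure from its own group. The count became 4 at 6 weeks only and 13 at 24 weeks only, both fixed by a lone mouse near the floor. It was 0 under every other alternative tried, leaving out each mouse included, and Fisher's exact test called 0 throughout. With 4 against 5 mice, a single miRNA could not have passed Fisher's exact test after adjustment. miR-5100 differed by 3.001 at 24 weeks only. The median over all miRNAs tested was 0.47, and it was 0.65 when scaled on the miRNAs detected on at least 8 arrays, 0.19 with quantile normalization and -0.11 in the deposited table. Scaling on the 75th percentile of all miRNAs changed nothing, since that percentile is the floor on each array. Without a filter, 86 miRNAs had values to fit. The others stood at the floor on all 9 arrays. Signal over background limits the comparison: at the floor of 12.6 a miRNA has no order between arrays. With the lowest floor (4.75), miR-144-3p differed by 2.03, miR-16-5p by 1.57 and miR-451a by 0.27. With the highest floor (48.8), they differed by 0.85, 0.39 and 0.44.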

Other observations

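miR-15a-5p was also detected on all 23 arrays of batch 1, at 48.0 to 1318 with a median of 316, so its level of 47.2 to 107 in the 9 plasmas lay at the lower end of that range. miR-451a had a median of 18600 in batch 1 against at most 3189 here. Of the 45 miRNAs detected on at least 4 of the 9 arrays, 42 were detected on all 23 batch 1 arrays. miR-6418-5p, detected on 7 of the 9 arrays at 29.2 to 63.8, was detected in clear mouse 5 and on all 4 NeuT+ arrays of batch 2, though not in clear mouse 1. miR-671-3p was detected on 6 of the 9 arrays, clear mouse 5 included, and on 17 of 23 arrays of batch 1.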
